A study of Mus musculus with 13 samples.

Results

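The 10 genes Slc5a1, Slc5a2, Slc2a1, Slc2a2, Slc34a1, Slc34a3, Slc20a1, Slc20a2, Pdzk1 and Slc9a3 encode the main carriers of glucose and phosphate of the kidney tubule and 2 of their partners at the brush border. Their regulatory regions were taken by position alone, as every deposited peak that overlapped a gene body or the 2 kb upstream of it in mm10 with the GENCODE M21 annotation. The rule gave 111 of 300755 peaks: 25 for Slc20a2, 18 for Slc9a3, 15 for Slc5a1, 14 for Pdzk1, 11 for Slc2a1, 9 for Slc2a2, 8 for Slc34a1, 4 each for Slc5a2 and Slc20a1, and 3 for Slc34a3. Chromatin was profiled by single nuclei ATAC-seq (snATAC-seq), which reads out open DNA nucleus by nucleus, in whole mouse kidneys: 2 samples labelled P0, 1 labelled P21 and 2 labelled P56. The protocol in the labels describes the P0 mice as 1-day-old, P21 and P56 together form the adult group, and the labels name no genotype, strain, sex or treatment for any sample. The study's methods name wild type and C57BL/6 for the mice of its single-cell RNA-seq and give neither for those of snATAC-seq. Nuclei carried the cluster names deposited with the data, of which 13 are main clusters, and the comparisons were made in PT and PT2, the clusters the study treats as the convoluted and the straight proximal tubule.

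Glucose filtered at the glomerulus is taken back across the apical membrane of the proximal tubule with sodium. SGLT2 (Slc5a2), of high capacity, works in the early convoluted part and SGLT1 (Slc5a1), of high affinity, in the late straight part, and glucose then leaves the cell through the basolateral carriers GLUT2 (Slc2a2) and GLUT1 (Slc2a1). Phosphate enters with sodium through the type II carriers NaPi-IIa (Slc34a1) and NaPi-IIc (Slc34a3) of the brush border, while the type III carriers Pit1 (Slc20a1) and Pit2 (Slc20a2) are expressed in most tissues. Pdzk1 is a PDZ scaffold of brush border transporters, and NHE3 (Slc9a3) exchanges sodium for protons in the proximal tubule and the thick ascending limb.

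The 5 samples held 28316 nuclei, from 3361 to 7129 each, and 27652 of them lay in the 13 main clusters. PT held 547 and 557 (P0), 1551 (P21) and 2459 and 2298 (P56) nuclei, against 83 and 112, 266, and 657 and 825 in PT2, so every P0 value of PT2 rests on few nuclei. A PT2 nucleus had more open peaks than a PT nucleus in 5 of 5 samples (medians of 5399 to 12173 against 4206 to 7466), and the first P56 sample was the shallowest over all nuclei, with a median of 3371. The share of open nuclei therefore carries depth with it, whereas the fold changes below were scaled for the total of each sum of open calls. Of 37 cell type markers, 34 had their highest open calls in the cluster of their name, the others being Cited1, Cubn and Cyp7b1. The 3 markers of the convoluted tubule (Slc5a12, Slc4a4 and Slc7a7) were higher in PT at both stages, and the 4 markers of the straight tubule (Kap, Slc7a13, Slc22a7 and Cyp7b1) were higher in PT2 in the adult, where only Kap passed the test at P0. The study named the convoluted cluster with Slc34a1 and Slc5a2 among its markers, so a higher level of these genes in PT is partly given by the name. Of 27834 barcodes, 477 occurred in more than 1 sample.

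Stretches of 160 bases directly upstream of the RefSeq start are shown for 4 genes because they show the range from poor to rich in CG among the genes open mainly in a few tubule clusters (GRCm38.p6, the 5′ to 3′ direction of the plus strand, CG in capitals, chr13:55399488-55399647, chr3:28697743-28697902, chr5:33104059-33104218 and chr13:74121253-74121412).
Slc34a1, upstream of its start: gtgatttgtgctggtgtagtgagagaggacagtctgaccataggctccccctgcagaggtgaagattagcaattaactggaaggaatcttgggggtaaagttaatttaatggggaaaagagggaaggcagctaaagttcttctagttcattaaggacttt
Slc2a2, upstream of its start: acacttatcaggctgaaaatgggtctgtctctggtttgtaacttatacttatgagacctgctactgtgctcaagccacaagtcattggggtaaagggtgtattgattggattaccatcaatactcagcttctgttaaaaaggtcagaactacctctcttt
Slc5a1, upstream of its start: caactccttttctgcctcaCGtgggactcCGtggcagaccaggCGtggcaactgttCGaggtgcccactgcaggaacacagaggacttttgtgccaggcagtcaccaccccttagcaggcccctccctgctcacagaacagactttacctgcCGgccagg
Slc9a3, upstream of its start: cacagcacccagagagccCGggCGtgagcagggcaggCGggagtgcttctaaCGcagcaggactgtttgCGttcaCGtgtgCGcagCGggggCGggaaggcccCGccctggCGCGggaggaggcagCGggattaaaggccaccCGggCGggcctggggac
In the 300 bases from 250 before to 50 after a start, the RefSeq promoters of Slc34a1, Slc34a3 and Slc2a2 held 2 CG each and the pair of Pdzk1 promoters 4 and 7, where the median of all 32851 promoters was 7 and 38.0% held at most 4. The Slc5a1 promoter held 10, that of Slc2a1 18, and those of Slc20a1 36 and 6. Slc9a3, open mainly in a few tubule clusters, held 25. Promoters were matched for 8 of the 10 genes, all but Slc5a2 and Slc20a2.

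At their starts 5 of the genes were open mainly in the proximal tubule, Slc5a1 and Slc9a3 there and in the loop of Henle, and 3 in every cluster. For each gene the start peak was the peak over its annotated start or, where there was none, over the start of another of its transcripts (Slc2a2, Slc34a1 and Pdzk1). Of several such starts the one most open in PT and PT2 was taken, so a high share there follows in part from the choice. For Slc2a2 this passed over a peak at 0.39 kb, which was called higher in adult PT than in adult PT2. At the Slc34a1 start peak 35.8% ± 11.5 (SD over 5 samples) of PT nuclei were open and 10.4% ± 4.26 of PT2 nuclei, and that of Slc34a3 in 30.6% ± 6.65 and 13.3% ± 7.05. The Slc5a2 start peak was open in 10.8% ± 5.43 of PT nuclei. In other clusters its mean over the 5 samples was at most 1.56%, reached in NP, the nephron progenitors, where the adult values rest on 1, 1 and 2 open nuclei. At P0 its shares were 0.291% and 0.697% in NP and 1.57% and 2.15% in the loop of Henle. For these 3 genes PT was the highest of the 13 clusters in 5 of 5 samples, also after every nucleus was thinned to 1000 open peaks.

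At their start peaks Slc5a1, Slc2a2 and Pdzk1 were most open in PT2 in 5 of 5 samples before thinning. That of Slc2a2 lies over an internal transcript start, 24.04 kb into the gene. The Slc5a1 start peak was open in 26.3% ± 7.57 of PT2 nuclei, 12.1% ± 3.63 of nuclei of LOH, the loop of Henle, and 10.4% of PT nuclei. After thinning PT2 and LOH stood at 2.77% and 2.71% and PT at 1.83%, and PT2 was the highest in 2 of 5 samples. The peak of Slc2a2 was open in 24.2% ± 10.3 of PT2 and 20.4% ± 9.20 of PT nuclei, and that of Pdzk1 in 28.0% ± 11.2 and 22.7% ± 6.71, and after thinning PT and PT2 stood at 3.41% ± 1.18 and 3.23% ± 1.70 for Slc2a2, with PT above PT2 in 2 of 5 samples, and at 3.98% ± 0.501 and 3.00% ± 1.98 for Pdzk1, with PT above in 4 of 5, so neither pair differed beyond its spread at equal depth. Outside the proximal tubule the highest mean over the 5 samples was 8.19% for Slc2a2 (NP, 2.70% at P0 and 11.9% in the adult) and 3.67% for Pdzk1 (stroma1, 0.727% and 5.63%). The adult NP values rest on 7 of 52, 8 of 90 and 7 of 53 nuclei, and adult stroma1 held 90, 107 and 101 nuclei. At P0 the highest outside the proximal tubule were the connecting tubule for Slc2a2 (8.03%) and LOH for Pdzk1 (2.33%). Slc9a3 was open in 16.1% ± 4.80 of PT nuclei and 13.2% ± 5.52 of LOH nuclei, which did not differ beyond their spread, and in 6.43% of PT2 nuclei. After thinning LOH stood at 3.14% and PT at 2.85%. PT (15.9% and 14.9%) was above LOH (7.72% and 9.97%) in both P0 samples. In the adult the order was mixed, with PT at 16.5% (P21) and 9.92% and 23.3% (P56) and LOH at 19.8% (P21) and 9.98% and 18.5% (P56).

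The remaining 3 genes were open in every cluster. Mean shares ran from 14.4% in Endo, the endothelium, to 33.6% in PC, the principal cells, for Slc2a1, from 21.3% in stroma1 to 37.5% in IC, the intercalated cells, for Slc20a1, and from 11.0% in immune cells to 26.7% in PT2 for Slc20a2. The cluster with the highest mean was the highest in 1, 2 and 2 of 5 samples, and the neighbours in these orders did not differ beyond their spread. After thinning another cluster had the highest mean for each, CNT (the connecting tubule) at 6.09% for Slc2a1, immune cells at 8.56% for Slc20a1 and DCT (the distal convoluted tubule) at 4.10% for Slc20a2, so the printed order is not one at equal depth.

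**Figure D1:**
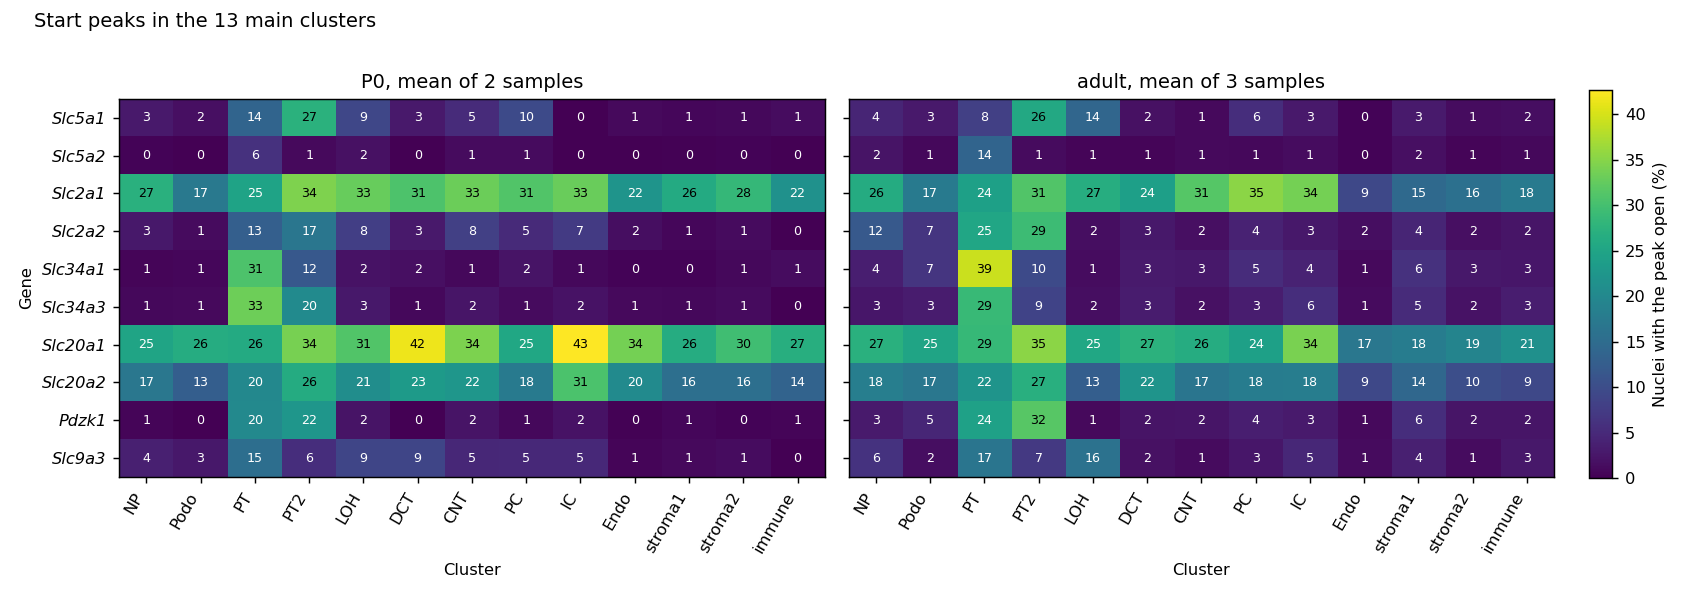
Mean share of nuclei (%, colour and printed value) with the start peak open, for 10 genes (rows) in the 13 main clusters (columns), at P0 (2 samples) and in the adult (3 samples). Slc34a1, Slc34a3, Slc5a2 and Pdzk1 are dark outside PT and PT2, whereas Slc2a1, Slc20a1 and Slc20a2 are bright in every column.

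Of the 111 peaks, 74 lay in introns, 12 in exons, 7 over an annotated gene start, 11 over the start of another transcript, 5 upstream and 2 at the 3′ end, with widths of 201 to 1545 bp (median 466). The highest share over the 13 clusters was in PT for 36 peaks, in PT2 for 33 and elsewhere for 42. All 4 peaks of Slc5a2, 7 of 8 of Slc34a1, 7 of 9 of Slc2a2 and 11 of 18 of Slc9a3 were most open in PT. PT2 was highest for 9 of 15 peaks of Slc5a1 and 9 of 14 of Pdzk1, and none of the 11 peaks of Slc2a1 was most open in PT or PT2. These orders are of shares not scaled for depth, with PT2 the deeper cluster. In the scaled adult test 2 Pdzk1 peaks were higher in PT and 1 in PT2. How many of all deposited peaks were highest in PT or PT2 was not counted. A peak can belong to more than 1 gene: 23 of the 111 also lay in the window of another gene, the Slc34a1 peak at its 3′ end holds the start of Pfn3, and the Slc20a2 start peak holds that of Smim19.

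The stage comparison asked which of these regions were more or less open in the adult than at P0. Sums of open calls per sample and cluster were tested with edgeR over all peaks, and 88 of the 111 peaks had enough counts in PT. Of these, 31 were more open in the adult and 4 less, where 16.3% of all tested peaks were called higher and 17.6% lower, and their median log2 fold change was 0.47 against 0.02 for all peaks. The 31 lay in 8 genes: 7 of 8 peaks of Slc34a1, 6 of 14 of Pdzk1, 4 of 9 tested of Slc2a2, 4 of 16 tested of Slc9a3, 3 of 4 of Slc5a2, 3 of 16 tested of Slc20a2, and 2 each of Slc20a1 and Slc5a1. The 4 lower peaks were 2 of Slc5a1, 1 of Slc2a1 and 1 of Slc2a2. After thinning 5 of 54 tested peaks were called, against 5201 of 42246 of all peaks, so their share was no longer above that of all peaks. DESeq2 called 22 of the 88, against 26322 of 115761. With either P0 sample left out a fit holds 1 P0 sample, so its count of calls cannot be set beside the 35. Calls that stood with every sample left out in turn rest in part on such fits and are not counted here.

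Markers of other cell types moved in both directions in PT between the stages. Of 10 marker lists, summed as open calls scaled to a common total (CPM), 6 were lower in every adult than in every P0 sample, 3 were higher, and that of CNT overlapped. Lower were nephron progenitor (27.8 to 38.1 at P0, 12.0 to 19.1 in the adult), stromal (41.6 to 49.3, then 20.6 to 26.1), podocyte (107.6 to 110.0, then 71.8 to 81.2), intercalated cell, endothelial and immune markers. Higher were the markers of DCT (95.4 to 97.7, then 151 to 200.4), of principal cells (7.67 to 10.8, then 19.0 to 28.9) and of the loop of Henle (25.1 to 26.2, then 27.0 to 36.3). Of the genes in these lists only the immune marker C1qb was at 0 in any PT sum, and 0 of them were most open in PT. Their part in the stage differences was not tested.

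In PT2, 42 of the 111 peaks could be tested, 4 were higher in the adult and 0 lower. Of all tested peaks 9.04% were higher and 6.99% lower, so the 4 are near the share of all peaks. In edgeR 12 had an unadjusted p under 0.05, a share not counted over all peaks. DESeq2 called 2, against 5805 of 45868 of all peaks. The 4 were a peak each of Slc2a1, Slc2a2, Slc20a1 and Pdzk1, and those of Slc2a1 and Slc20a1 entered the test through their adult counts alone. With either P0 sample left out no spread between P0 samples remains, so the calls of such a fit cannot be set beside the 4. Of the 10 marker lists of other cell types, 2 were higher in every adult than in every P0 sample of PT2, those of DCT (84.8 to 110.7 CPM at P0, 190.2 to 221.3 in the adult) and LOH (32.2 to 32.7, then 35.3 to 49.2). Lower without overlap were 4, of nephron progenitors (46.0 to 56.3, then 29.5 to 37.9), stroma (68.4 to 73.9, then 34.3 to 42.4), endothelium and principal cells, and the other 4 overlapped. Of these markers Atp6v1g3 of the intercalated cells and C1qb were at 0 in some PT2 sums. Their part in the stage differences of PT2 was not tested.

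PT and PT2 were then compared within the same kidneys. The clusters had been defined on these nuclei, so p-values here only rank peaks and do not test the clusters themselves. At P0, 17 of 53 tested peaks were more open in PT and 0 in PT2, where 5.95% of all tested peaks were higher in PT and 7.11% in PT2. Some of the 17 had 1 or 2 open nuclei of 195 in PT2. They were the Slc5a2 start peak, that of Slc34a1 at 13.97 kb and those of Slc9a3 at 1.47, 3.98 and 18.05 kb. The Slc9a3 peak at 26.36 kb had 0. All of these entered the test through their PT counts alone, so their calls are no separate support. In the adult 37 of 90 were more open in PT and 17 in PT2, against 20.4% and 21.9%, and the median log2 ratio was 0.33 against 0.01 for all peaks. Higher in adult PT were all 4 peaks of Slc5a2, all 8 of Slc34a1, 7 of 9 of Slc2a2, 13 of 16 tested of Slc9a3, 2 of 14 of Pdzk1, and 1 each of Slc34a3, Slc5a1 and Slc20a2. Higher in adult PT2 were 7 of 12 tested peaks of Slc5a1, 5 of 15 of Slc20a2, 3 of 6 of Slc2a1, and 1 each of Slc20a1 and Pdzk1. With every adult sample left out in turn 43 of the 54 were called throughout. Over all peaks 45562 of 110757 were called without P21, 40704 of 104888 without the first P56 sample and 32703 of 91999 without the second. How many of these were called throughout was not counted. Thinning left 28 calls, 27 of them among the 54. At P0, where PT2 had 195 nuclei, DESeq2 made 2 calls and equal numbers of nuclei left 6 of the 17. After thinning 0 of 12 tested peaks were called. All tested peaks lost most of their calls as well. Of these, 192 of 55315 were called with DESeq2, 835 of 20989 with equal numbers and 3 of 7724 after thinning, against 7224 of 55315.

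**Figure D2:**
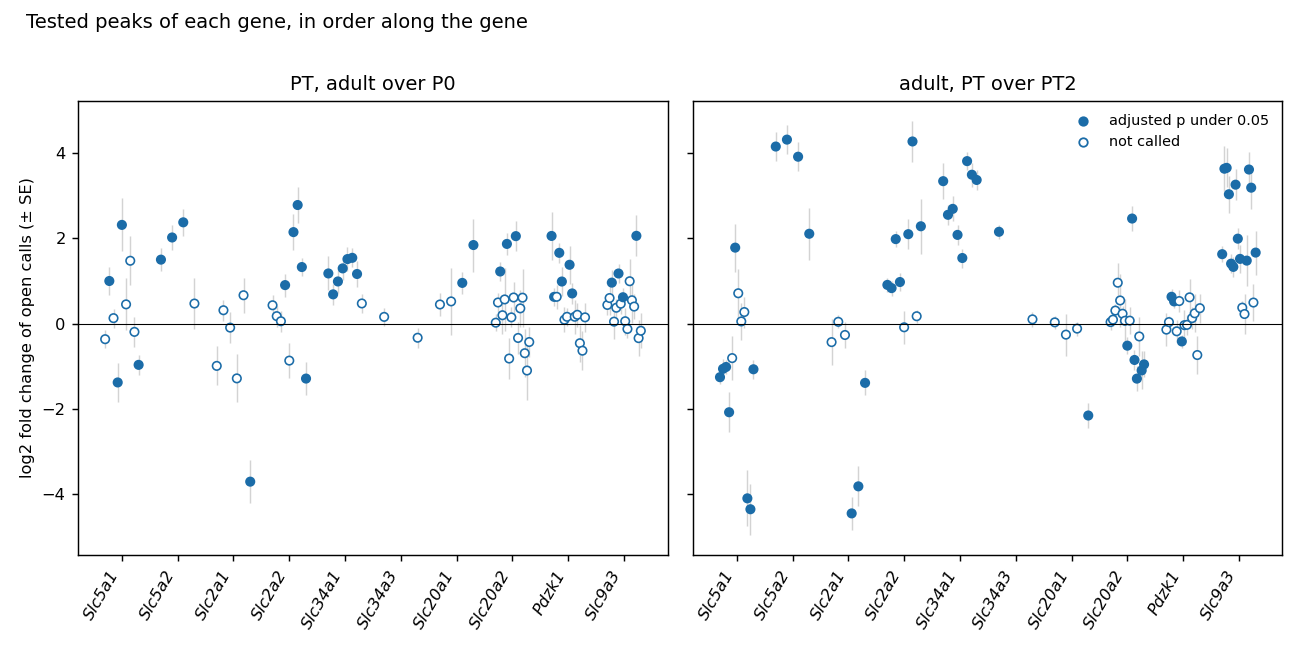
Log2 fold change of open calls with its SE for every tested peak of the 10 genes, in order along each gene, in PT as adult over P0 (left) and in the adult as PT over PT2 (right). Filled points passed an adjusted p of 0.05. On the right Slc5a2, Slc34a1 and Slc9a3 lie above 0, most called peaks of Slc5a1 and all 3 of Slc2a1 below it.

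Slc5a2, the apical carrier for most filtered glucose, had 4 peaks on chromosome 7, clustered near its start and all more open in PT. The start peak (chr7:128265545-128266004) was open in PT in 5.85% and 6.46% (P0), 15.7% (P21) and 8.30% and 17.5% (P56). The PT2 shares were 1.20% and 0.893% (P0), 2.63% (P21) and 0.152% and 1.21% (P56). The lowest PT sample stood above the highest PT2 sample, and within PT all adult samples lay above both P0 samples. The peak was more open in adult than in P0 PT, by 1.50 ± 0.27 (SE, edgeR adjusted p = 0.0011) on the log2 scale, and in adult PT than in adult PT2, by 4.15 ± 0.34 (SE, edgeR adjusted p = 2.3e-10). At P0 it was open in 68 of 1104 PT nuclei and 2 of 195 PT2 nuclei, a ratio of shares of 6.01 with an exact 95% counting interval of 1.60 to 50.6.

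The 2 peaks that followed repeated this order. The peak whose centre lies 0.79 kb into the gene was open in PT in 3.66% and 2.69% (P0), 12.0% (P21) and 5.86% and 12.5% (P56), and that at 1.90 kb in 2.93% and 1.62% (P0), 9.09% (P21) and 5.98% and 12.5% (P56). Both were more open in adult than in P0 PT, by 2.02 ± 0.30 (SE, edgeR adjusted p = 3.8e-04) and 2.37 ± 0.31 (SE, edgeR adjusted p = 1.7e-04), and in PT than in PT2 of the adult, by 4.31 ± 0.35 (SE, edgeR adjusted p = 2.0e-10) and 3.91 ± 0.34 (SE, edgeR adjusted p = 7.0e-10). The last peak, at 2.57 kb, was not called between stages and was higher in adult PT, by 2.11 ± 0.61 (SE, edgeR adjusted p = 0.0061). It was not among the 43 peaks called with every adult sample left out in turn.

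Slc5a1, the high-affinity carrier of the late proximal tubule, showed the opposite order of the clusters. Its start peak (chr5:33104059-33105375) was open in PT in 16.8% and 10.6% (P0), 7.41% (P21) and 6.26% and 10.7% (P56). In PT2 the shares were 31.3% and 23.2% (P0), 21.1% (P21) and 19.0% and 37.0% (P56). Every PT2 sample stood above every PT sample, and the stages overlapped in both clusters. These shares are not scaled for depth, and PT2 was the deeper cluster. The peak was less open in adult PT than in adult PT2, by -1.26 ± 0.16 (SE, edgeR adjusted p = 5.3e-07), and the stage difference in PT, -0.37 ± 0.22 (SE, edgeR adjusted p = 0.21), did not pass. At P0 the ratio of PT over PT2 at the start peak, -0.49 ± 0.21 (SE, edgeR adjusted p = 0.17), did not pass, nor did that of the gene sum, -0.35 ± 0.11 (SE, edgeR adjusted p = 0.066). There 0 of 4 tested Slc5a1 peaks were called, with 1 at an unadjusted p under 0.05 and 0 called by DESeq2, and after thinning the start peak was open in 2.40% of PT and 2.26% of PT2 nuclei, against 1.45% and 3.12% in the adult. The intronic peak at 17.91 kb (chr5:33121800-33122452) had the same order, with PT shares of 11.3% and 10.2% (P0), 10.4% (P21) and 6.95% and 9.88% (P56) and PT2 shares of 19.3% and 20.5% (P0), 25.6% (P21) and 16.3% and 30.3% (P56), which did not overlap either. Its adult log2 ratio of PT over PT2 was -1.02 ± 0.16 (SE, edgeR adjusted p = 1.1e-05).

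Of the other Slc5a1 peaks, those at 43.51 and 43.85 kb were the most unequal, with adult log2 ratios of PT over PT2 of -4.10 ± 0.66 (SE, edgeR adjusted p = 1.2e-05) and -4.35 ± 0.59 (SE, edgeR adjusted p = 1.1e-06). The peak at 43.51 kb had too few counts to be tested without the second P56 sample. Both were open in 0 of 195 PT2 nuclei at P0, which allows a share of up to 1.54%. The peak at 46.87 kb was less open in adult than in P0 PT, by -0.97 ± 0.24 (SE, edgeR adjusted p = 0.0075), a call lost without either P0 sample. Among the 15 peaks that at 24.41 kb alone was higher in adult PT than in PT2, by 1.78 ± 0.56 (SE, edgeR adjusted p = 0.012), a call lost without either P56 sample.

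Slc2a2, the basolateral glucose exit of the proximal tubule, had 9 peaks. The peak over an internal transcript start (chr3:28721353-28722523), 24.04 kb into the gene, was open in PT in 14.6% and 11.3% (P0), 22.6% (P21) and 18.4% and 35.0% (P56). In PT2 the shares were 19.3% and 14.3% (P0), 22.9% (P21) and 23.3% and 41.5% (P56). All adult samples lay above both P0 samples in both clusters, and PT and PT2 overlapped. It was more open in the adult in PT, by 1.33 ± 0.22 (SE, edgeR adjusted p = 6.8e-04), and in PT2, by 1.05 ± 0.24 (SE, edgeR adjusted p = 0.011), and the adult ratio of PT over PT2, 0.17 ± 0.15 (SE, edgeR adjusted p = 0.39), did not pass. The upstream peak (chr3:28695655-28696674), centred 1.74 kb before the start, had the other pattern. It was open in PT in 27.2% and 25.5% (P0), 29.1% (P21) and 16.4% and 39.5% (P56) and in PT2 in 19.3% and 20.5% (P0), 15.0% (P21) and 13.9% and 29.0% (P56), so PT was higher in every sample. The ratio of PT over PT2 was 0.92 ± 0.18 (SE, edgeR adjusted p = 0.0014) at P0 and 0.91 ± 0.16 (SE, edgeR adjusted p = 2.9e-05) in the adult. A further difference lay at 20.96 kb, an exonic peak open in PT in 0.731% and 0.898% (P0), 5.35% (P21) and 3.01% and 4.87% (P56), and in at most 0.893% of PT2 nuclei. It was higher in adult PT than at P0, by 2.78 ± 0.43 (SE, edgeR adjusted p = 4.3e-04), and than in adult PT2, by 4.27 ± 0.48 (SE, edgeR adjusted p = 4.5e-08).

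Slc2a1, the widespread glucose carrier GLUT1, differed between its start and its introns. The start peak (chr4:119108597-119109559) was open in PT in 28.7% and 20.6% (P0), 26.2% (P21) and 12.7% and 33.9% (P56), and in PT2 in 31.3% and 37.5% (P0), 30.5% (P21) and 15.4% and 47.3% (P56). It was called in none of the comparisons. The intronic peak at 9.21 kb (chr4:119117687-119118161) was open in PT in 0.183% and 0% (P0), 0.129% (P21) and 0.244% and 0.392% (P56). In PT2 it was open in 0% and 1.79% (P0), 3.76% (P21) and 5.48% and 15.4% (P56). It was at or near 0 in every PT sample, and in PT2 each adult sample stood above both P0 samples. In the adult it was less open in PT than in PT2, by -4.45 ± 0.39 (SE, edgeR adjusted p = 6.8e-10). It entered the stage test of PT2 through its adult counts alone, so its call there is no separate support. Within PT2 it was open in 173 of 1748 adult nuclei and 2 of 195 P0 nuclei, a ratio of shares of 9.65 (exact 95% counting interval of 2.63 to 80.3). The ratio was 4.86 without the second P56 sample, which held most of the open nuclei, 5.54 without the first P0 sample and at least 2.74, against a limit of 3 counts, without the second, and with a P56 sample left out the peak had too few counts to be tested. Over the 13 clusters its mean over the 5 samples of both stages was highest in LOH, at 7.42% of nuclei. The LOH markers were higher in adult than in P0 PT2, and their part in the values of this peak was not tested. The peaks at 10.44 and 12.76 kb were also higher in adult PT2, with log2 ratios of PT over PT2 of -3.82 ± 0.47 (SE, edgeR adjusted p = 2.4e-07) and -1.39 ± 0.29 (SE, edgeR adjusted p = 3.0e-04).

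The Slc2a1 peak at 23.07 kb had the lowest log2 fold change from P0 to adult in PT of the 88 tested peaks. It was open in 2.93% and 3.23% (P0), 0.129% (P21) and 0.203% and 0.174% (P56) of PT nuclei, so the stages did not overlap, and fell by 3.71 ± 0.51 (SE, edgeR adjusted p = 2.2e-04) on the log2 scale. The peak entered this test through its P0 counts alone, so its call is no separate support. In PT2 the shares were 2.41% and 8.04% (P0), 0% (P21) and 0.152% and 0.606% (P56).

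Slc34a1, the main phosphate carrier of the brush border, was open mainly in PT. The start peak (chr13:55399480-55400242), which covers the RefSeq start, was open in PT in 32.0% and 29.4% (P0), 44.5% (P21) and 22.5% and 50.6% (P56). The PT2 shares were 10.8% and 12.5% (P0), 16.2% (P21) and 5.48% and 7.15% (P56). Every PT sample stood above every PT2 sample, whereas the P0 and adult samples of PT overlapped. The log2 ratio of PT over PT2 was 1.90 ± 0.20 (SE, edgeR adjusted p = 1.2e-10) at P0 and 2.55 ± 0.23 (SE, edgeR adjusted p = 1.8e-09) in the adult. Its stage difference in PT, 0.69 ± 0.24 (SE, edgeR adjusted p = 0.041), was lost after thinning and when any sample but the first of P56 was left out.

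The peak at 10.52 kb (chr13:55408096-55409319) differed by stage and by cluster. It was open in PT in 18.5% and 13.6% (P0), 40.2% (P21) and 23.7% and 45.2% (P56). In PT2 it was open in 6.02% and 2.68% (P0), 3.38% (P21) and 3.20% and 3.64% (P56). All adult PT samples lay above both P0 samples, and no PT2 sample reached the lowest PT sample. It was more open in adult than in P0 PT, by 1.54 ± 0.23 (SE, edgeR adjusted p = 3.2e-04), and in PT than in PT2 both at P0, by 2.44 ± 0.35 (SE, edgeR adjusted p = 1.6e-07), and in the adult, by 3.81 ± 0.21 (SE, edgeR adjusted p = 3.5e-13).

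The peak at the 3′ end of Slc34a1 (chr13:55414425-55415969), which also holds the start of Pfn3, was the most open of the 111 in PT. It was open there in 59.2% and 54.4% (P0), 66.1% (P21) and 46.8% and 70.1% (P56), and in PT2 in 24.1% and 10.7% (P0), 13.9% (P21) and 5.33% and 6.67% (P56), with no overlap. The log2 ratio of PT over PT2 was 2.30 ± 0.14 (SE, edgeR adjusted p = 6.2e-25) at P0 and 3.37 ± 0.22 (SE, edgeR adjusted p = 7.5e-12) in the adult, and the stage difference in PT, 0.47 ± 0.21 (SE, edgeR adjusted p = 0.11), did not pass. At 13.97 kb the PT shares were 8.23% and 5.92% (P0), 16.1% (P21) and 6.47% and 14.9% (P56), and the adult ratio over PT2 was 3.49 ± 0.28 (SE, edgeR adjusted p = 1.6e-10). Of the 8 peaks, all but the one at the 3′ end were more open in adult than in P0 PT, with log2 fold changes of 0.69 to 1.54.

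Slc34a3, which carries less of the phosphate than Slc34a1 in the adult mouse, showed a difference between clusters and none that passed between stages. The start peak (chr2:25234214-25235406) was open in PT in 36.2% and 30.2% (P0), 32.9% (P21) and 19.3% and 34.2% (P56). The PT2 shares were 19.3% and 21.4% (P0), 8.27% (P21) and 4.87% and 12.6% (P56). PT was higher than PT2 within each sample, and the adult PT2 samples lay below both P0 PT2 samples. The log2 ratio of PT over PT2 was 1.20 ± 0.16 (SE, edgeR adjusted p = 3.2e-06) at P0 and 2.15 ± 0.17 (SE, edgeR adjusted p = 1.4e-10) in the adult. Neither the stage difference in PT, 0.16 ± 0.21 (SE, edgeR adjusted p = 0.60), nor that in PT2, -1.07 ± 0.35 (SE, edgeR adjusted p = 0.053), passed. The peak at 5.54 kb, at the 3′ end of the gene, was open in 26.3% and 21.4% (P0), 12.4% (P21) and 9.60% and 22.9% (P56) of PT nuclei and in 30.1% and 31.2% (P0), 15.4% (P21) and 12.5% and 27.0% (P56) of PT2 nuclei, and was most open in DCT, with a mean of 33.5%. It was called in none of the comparisons.

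Slc20a1, a phosphate carrier found in most cells, was open at its start in every sample. The start peak (chr2:129198144-129199098) was open in PT in 29.4% and 22.8% (P0), 30.0% (P21) and 13.5% and 42.2% (P56) and in PT2 in 38.6% and 29.5% (P0), 32.0% (P21) and 20.5% and 53.3% (P56), and was called in no comparison. The peak at 8.32 kb was open in PT in 8.41% and 7.54% (P0), 11.2% (P21) and 7.40% and 18.2% (P56) and was more open in adult than in P0 PT, by 0.95 ± 0.26 (SE, edgeR adjusted p = 0.012). At 11.65 kb the shares were low in PT, 0.548% and 0.539% (P0), 0.838% (P21) and 1.18% and 2.57% (P56), and higher in PT2, 1.20% and 2.68% (P0), 6.02% (P21) and 4.87% and 18.5% (P56). The adult samples stood above the P0 samples in both clusters. This peak was more open in the adult in PT, by 1.84 ± 0.62 (SE, edgeR adjusted p = 0.035), and in PT2, by 2.37 ± 0.67 (SE, edgeR adjusted p = 0.030). It entered both stage tests through its adult counts alone, so these 2 calls are no separate support. It was more open in adult PT2 than in adult PT, with a log2 ratio of PT over PT2 of -2.16 ± 0.29 (SE, edgeR adjusted p = 8.2e-07). The peak at 8.32 kb lies over the start of another transcript and that at 11.65 kb in an intron. The stage calls of both were lost without either P0 sample, where no spread between P0 samples remains.

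Slc20a2, the other type III carrier, had the most peaks, 25. The start peak (chr8:22476303-22477740) was open in PT in 22.9% and 17.1% (P0), 22.1% (P21) and 13.9% and 30.1% (P56) and in PT2 in 30.1% and 22.3% (P0), 22.6% (P21) and 18.0% and 40.4% (P56), and was called in no comparison. Intronic peaks differed by stage, and that at 4.59 kb was open in PT in 15.9% and 13.1% (P0), 25.4% (P21) and 18.0% and 36.1% (P56), with an adult over P0 log2 fold change of 1.22 ± 0.22 (SE, edgeR adjusted p = 0.0011). That at 17.82 kb was open in 4.57% and 3.95% (P0), 10.6% (P21) and 9.31% and 16.3% (P56), with a fold change of 1.87 ± 0.25 (SE, edgeR adjusted p = 1.9e-04). For both, all adult PT samples stood above both P0 samples. The peak at 34.49 kb was more open in the adult in PT, by 2.05 ± 0.35 (SE, edgeR adjusted p = 9.0e-04), and was the one peak of this gene higher in adult PT than in PT2, by 2.46 ± 0.29 (SE, edgeR adjusted p = 1.4e-07). The 5 peaks higher in adult PT2, at 29.76, 37.15, 38.38, 67.94 and 89.23 kb, had log2 ratios of PT over PT2 of -1.29 to -0.52, and that at 38.38 kb alone was called with every adult sample left out in turn.

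Pdzk1, the scaffold that binds brush border transporters, was open in both proximal clusters. The start peak (chr3:96829825-96830458) was open in PT in 21.9% and 18.3% (P0), 23.8% (P21) and 16.1% and 33.4% (P56), and in PT2 in 25.3% and 19.6% (P0), 29.7% (P21) and 18.7% and 46.4% (P56). The adult log2 ratio of PT over PT2 was 0.03 ± 0.15 (SE, edgeR adjusted p = 0.89). The P0 and adult shares overlapped in PT, where the scaled difference was 0.63 ± 0.21 (SE, edgeR adjusted p = 0.036), and after thinning its sign turned, to -0.22. It was also lost when any sample but the first of P56 was left out. The intronic peak at 5.92 kb (chr3:96834837-96835562) was open in PT in 11.9% and 8.44% (P0), 27.7% (P21) and 15.3% and 32.2% (P56). In PT2 it was open in 15.7% and 6.25% (P0), 22.9% (P21) and 13.1% and 33.1% (P56). Adult samples stood above P0 samples in PT, and in PT2 1 adult sample lay below the higher P0 sample. The peak was more open in the adult in PT, by 1.66 ± 0.24 (SE, edgeR adjusted p = 3.0e-04), and in PT2, by 1.33 ± 0.37 (SE, edgeR adjusted p = 0.028). The peak at 10.19 kb was the one called higher in adult PT2, with a log2 ratio of PT over PT2 of -0.42 ± 0.15 (SE, edgeR adjusted p = 0.026), and it was not called without the sample as a block, without P21 or without the first P56 sample.

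Slc9a3, the sodium and proton exchanger of the brush border, differed between clusters at most of its peaks. The start peak (chr13:74121227-74121857) was open in PT in 15.9% and 14.9% (P0), 16.5% (P21) and 9.92% and 23.3% (P56). The PT2 shares were 4.82% and 6.25% (P0), 6.39% (P21) and 4.87% and 9.82% (P56). The lowest PT and the highest PT2 share, both of P56 samples, nearly met, and within each sample PT was higher. The log2 ratio of PT over PT2 was 1.96 ± 0.32 (SE, edgeR adjusted p = 7.7e-06) at P0 and 1.63 ± 0.19 (SE, edgeR adjusted p = 1.3e-07) in the adult, and the stage difference in PT, 0.44 ± 0.23 (SE, edgeR adjusted p = 0.16), did not pass.

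The intronic peak of Slc9a3 at 26.36 kb (chr13:74147643-74147982) was open in PT in 4.57% and 4.67% (P0), 5.80% (P21) and 3.17% and 5.35% (P56). In PT2 it was open in 0 of 195 P0 nuclei, which allows a share of up to 1.54%, and in 0.752% at P21 and 0.152% and 0.727% at P56. At P0 it was at least 3.00-fold higher in PT against that limit over both samples. With 1 P0 sample alone, of 83 or 112 PT2 nuclei, the limit is higher and this bound lower. The peak entered the P0 test through its PT counts alone, so its call there is no separate support. In the adult the log2 ratio was 3.61 ± 0.42 (SE, edgeR adjusted p = 9.0e-08). At 18.05 kb, with 83 of 1104 open nuclei in PT against 2 of 195 in PT2 at P0, the ratio of shares was 7.33 (exact 95% counting interval of 1.97 to 61.5), 3.57 without the second P0 sample and at least 2.41 without the first, and the adult log2 ratio was 3.26 ± 0.36 (SE, edgeR adjusted p = 3.3e-08). The most open Slc9a3 region, at 23.00 kb, was open in both clusters, in 34.7% and 28.2% (P0), 23.7% (P21) and 14.2% and 30.2% (P56) of PT nuclei and in 43.4% and 23.2% (P0), 18.4% (P21) and 18.9% and 28.7% (P56) of PT2 nuclei, and was called in no comparison.

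**Figure D3:**
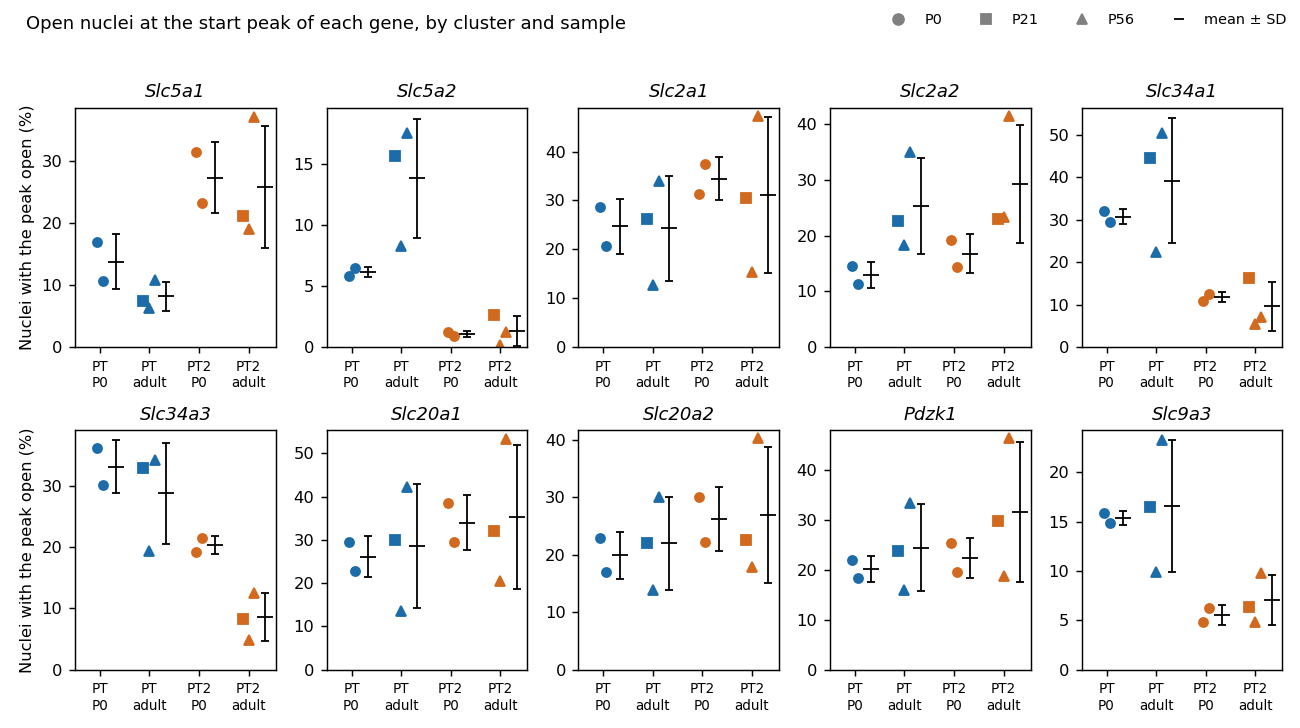
Share of nuclei (%) with the start peak open, for each gene in PT (blue) and PT2 (orange) at P0 and in the adult, a point per sample with the stage mean and SD beside it. PT stands above PT2 in every sample for Slc5a2, Slc34a1, Slc34a3 and Slc9a3, and below it in every sample for the other 6 genes, with PT2 the deeper cluster and shares not scaled for depth. The Slc2a2 start peak is the one 24.04 kb into the gene.

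**Figure D4:**
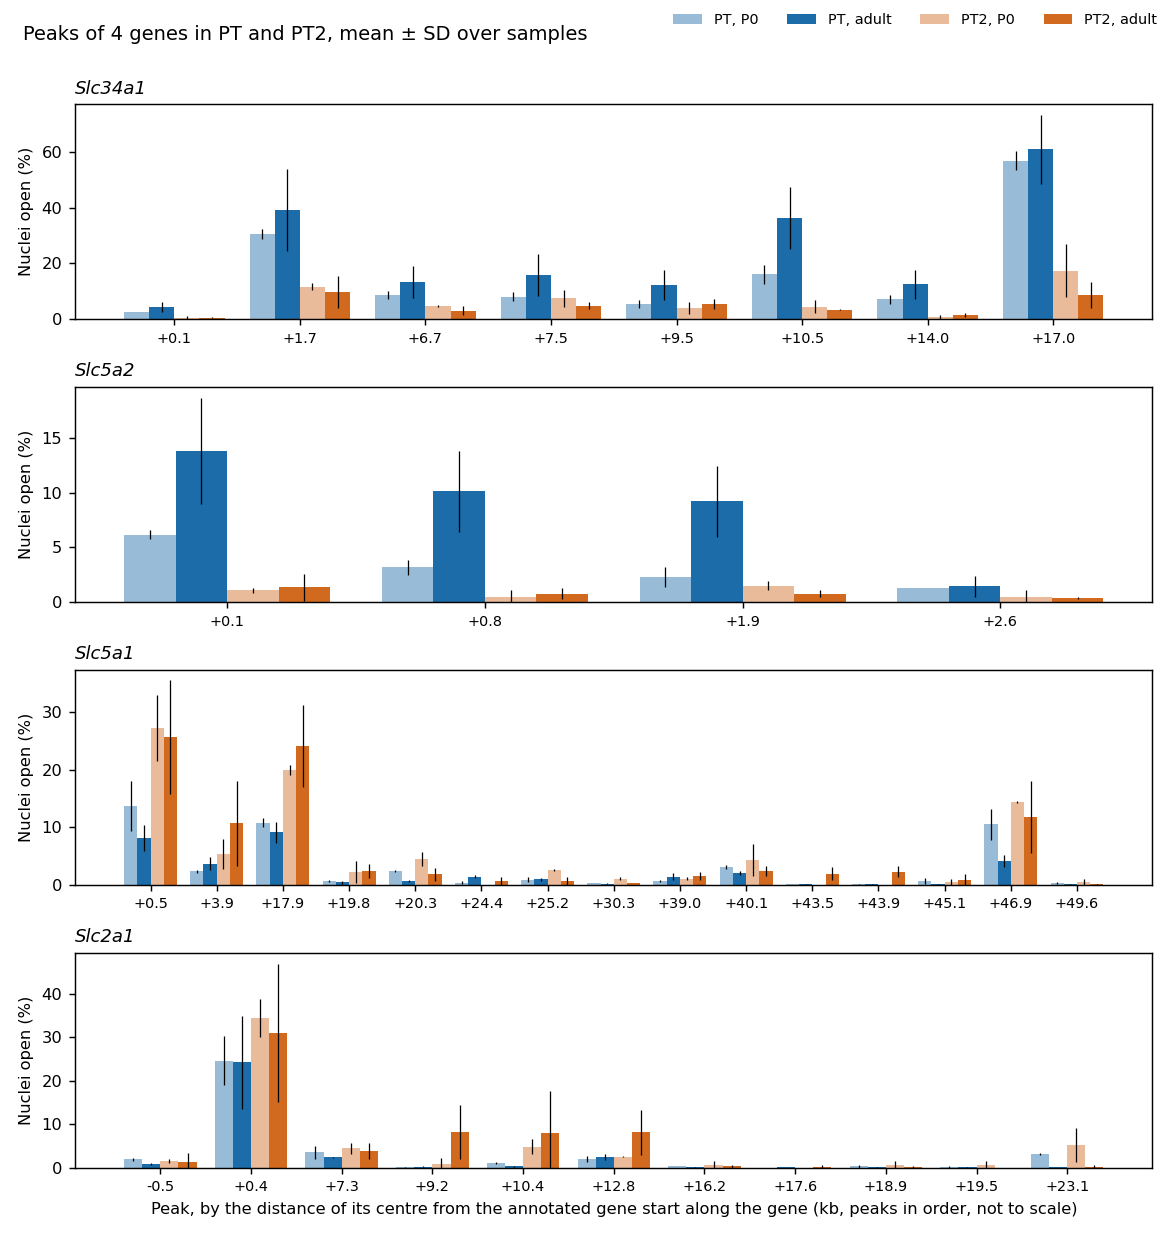
Share of open nuclei (%, mean with SD over 2 P0 or 3 adult samples) at every peak of Slc34a1, Slc5a2, Slc5a1 and Slc2a1, labelled by the distance in kb of the peak centre from the annotated start. Bars of Slc34a1 and Slc5a2 are taller in PT (blue), those of the main Slc5a1 peaks in PT2 (orange), and the intronic Slc2a1 peaks near 10 kb are tallest in adult PT2.

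Whether the gap between PT and PT2 itself differed between stages was tested as an interaction. Of 84 tested peaks, 0 passed in edgeR, where 3.20% of all tested peaks did, with 10 at an unadjusted p under 0.05. DESeq2 called 0 of them, against 987 of 97662 of all peaks. The lowest adjusted p was that of the Slc34a3 start peak, at which the log2 ratio of PT over PT2 was larger in the adult by 0.96 ± 0.30 (SE, edgeR adjusted p = 0.077). For the Slc34a1 peak at 10.52 kb the value was 1.38 ± 0.61 (SE, edgeR adjusted p = 0.25), and for the Slc5a1 start peak -0.75 ± 0.29 (SE, edgeR adjusted p = 0.17).

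Summed over all peaks of a gene, open calls as CPM were compared in the same way. In PT, 6 of the 10 gene sums were higher in the adult and 0 lower, against 12.8% and 15.6% of all genes tested. For Slc5a2 they were 18.6 and 20.0 (P0), 66.6 (P21) and 47.2 and 58.2 (P56) CPM, a difference of 1.71 ± 0.18 (SE, edgeR adjusted p = 3.9e-04), and for Slc34a1 197 and 207 (P0), 366 (P21) and 284 and 325 (P56) CPM, a difference of 0.82 ± 0.12 (SE, edgeR adjusted p = 0.0013). In both genes the stages did not overlap. The others were Pdzk1 at 0.59 ± 0.12 (SE, edgeR adjusted p = 0.0053), Slc20a2 at 0.53 ± 0.12 (SE, edgeR adjusted p = 0.0086), Slc2a2 at 0.49 ± 0.14 (SE, edgeR adjusted p = 0.027) and Slc9a3 at 0.33 ± 0.11 (SE, edgeR adjusted p = 0.045). With 1 P0 sample left out, Slc5a2 stood in both cases and Slc34a1 without the second P0 sample, and the other 4 in neither case. Slc9a3 was also lost without P21, without the second P56 sample and with DESeq2. After thinning Slc5a2 and Slc34a1 were called and the other 4 were not. In PT2, 1 of 9 tested sums was higher, that of Slc20a1, by 0.70 ± 0.21 (SE, edgeR adjusted p = 0.045), which was lost without either P0 sample, without the second P56 sample, with DESeq2, with equal numbers of nuclei and after thinning, and 0 lower, against 5.44% and 7.46%.

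Between clusters, 5 gene sums were higher in PT at P0 and 1 in PT2, against 4.49% and 6.23% of all genes, and in the adult 5 were higher in PT and 2 in PT2, against 14.2% and 17.6%. In the adult Slc5a2 stood at a log2 ratio of PT over PT2 of 3.97 ± 0.19 (SE, edgeR adjusted p = 7.8e-09), Slc34a1 at 2.79 ± 0.18 (SE, edgeR adjusted p = 7.7e-08) and Slc9a3 at 1.38 ± 0.12 (SE, edgeR adjusted p = 1.1e-06). Slc34a3 followed with 1.08 ± 0.11 (SE, edgeR adjusted p = 3.9e-06) and Slc2a2 with 0.84 ± 0.10 (SE, edgeR adjusted p = 2.7e-05). The same 5 genes were called higher in PT at P0, with log2 ratios of 0.64 to 2.31. Of the 6 calls at P0, 2 stood with DESeq2, 3 with equal numbers of nuclei and 1, that of Slc34a1, after thinning. Over all genes tested these settings called 102 of 22952, 760 of 17988 and 37 of 12381, against 2461 of 22952. Lower in adult PT were Slc5a1, at -1.02 ± 0.11 (SE, edgeR adjusted p = 5.4e-06), and Slc2a1, at -0.56 ± 0.12 (SE, edgeR adjusted p = 0.0019), the latter not called without the sample as a block. At P0 the lower gene was Slc20a2, at -0.29 ± 0.08 (SE, edgeR adjusted p = 0.034), likewise lost without the block. The 7 adult calls stood after thinning and with each adult sample left out.

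Other genes of these pathways were taken from 3 lists. Of 14 further sugar and phosphate carriers, 3 sums were higher and 2 lower in adult than in P0 PT, 0 of 13 tested differed in PT2, 2 were higher and 0 lower in PT than PT2 at P0, and in the adult 3 were higher and 5 lower. Over all genes tested the shares higher and lower were 12.8% and 15.6% in PT by stage, 5.44% and 7.46% in PT2, 4.49% and 6.23% between clusters at P0, and 14.2% and 17.6% in the adult, and the stage counts of these carriers in PT are near them. The lower sums in adult PT by stage were Slc5a4a (-1.54 ± 0.45, edgeR adjusted p = 0.028), of the SGLT family, and Slc34a2 (-0.59 ± 0.18, edgeR adjusted p = 0.037), a phosphate carrier of other epithelia. In adult PT2 the higher ones included Slc5a4a (-2.40 ± 0.43, edgeR adjusted p = 6.0e-04), the inositol carrier Slc5a3 (-0.59 ± 0.11, edgeR adjusted p = 6.4e-04) and Slc5a4b (-0.66 ± 0.16, edgeR adjusted p = 0.0044), and in adult PT the glucose carrier Slc2a12 (1.04 ± 0.14, edgeR adjusted p = 4.7e-05), each as a log2 ratio of PT over PT2 with its SE. The list medians were 0.16 in the PT stage comparison and 0.12 in the adult cluster comparison, against 0.02 and -0.0017 over all genes.

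Of 10 genes of scaffolds, sodium pumps and proton exchange, 4 were higher and 0 lower in adult than in P0 PT, against 12.8% and 15.6% of all genes, and 1 was higher and 1 lower in PT2, near the 5.44% and 7.46% of all genes. The pair in PT2 was the proton exchanger Slc9a8 (1.13 ± 0.22, edgeR adjusted p = 0.0092) and the scaffold Slc9a3r2 (-0.91 ± 0.24, edgeR adjusted p = 0.029). At P0, 4 were higher in PT and 1 in PT2, against 4.49% and 6.23%, among them the actin linker Ezr (0.44 ± 0.08, edgeR adjusted p = 2.8e-05) and Pdzk1ip1 (0.58 ± 0.10, edgeR adjusted p = 4.9e-05), a partner of Pdzk1 at the membrane, against the scaffold Slc9a3r2 (-0.77 ± 0.21, edgeR adjusted p = 0.010). In the adult 4 were higher in PT and 1 in PT2, against 14.2% and 17.6%, among them Pdzk1ip1 (1.07 ± 0.13, edgeR adjusted p = 1.8e-05) against Slc9a8 (-0.70 ± 0.11, edgeR adjusted p = 2.1e-04). The list medians were 0.37 and 0.17 in the PT stage and adult cluster comparisons.

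Of 12 hormone and transcription factor genes of phosphate and glucose handling, 5 were higher and 0 lower in adult than in P0 PT, against 12.8% and 15.6% of all genes. They included the lipid sensor Ppara (0.94 ± 0.13, edgeR adjusted p = 0.0010), the vitamin D receptor Vdr (0.72 ± 0.12, edgeR adjusted p = 0.0025), the kinase Sgk1 (0.68 ± 0.11, edgeR adjusted p = 0.0026) and the FGF23 co-receptor Kl (0.59 ± 0.13, edgeR adjusted p = 0.0095). In PT2, 2 were higher and 0 lower, against 5.44% and 7.46%, namely Ppara (0.83 ± 0.14, edgeR adjusted p = 0.0046) and Vdr (0.61 ± 0.13, edgeR adjusted p = 0.014). Between clusters, 6 were higher in PT at P0 and 0 in PT2, against 4.49% and 6.23%, with Ppara (0.72 ± 0.08, edgeR adjusted p = 2.0e-10) and the vitamin D inactivating hydroxylase Cyp24a1 (1.04 ± 0.18, edgeR adjusted p = 8.2e-06) first, and in the adult 5 were higher in PT and 1 in PT2, against 14.2% and 17.6%. The vitamin D activating hydroxylase Cyp27b1 (1.63 ± 0.18, edgeR adjusted p = 8.7e-06) and Cyp24a1 (1.63 ± 0.19, edgeR adjusted p = 2.0e-05) led these. The list medians were 0.36 and 0.16 in the same comparisons.

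The central 160 bases of 4 intronic peaks are shown as they carry the differences between PT and PT2, the first pair higher in adult PT and the last pair in adult PT2 (GRCm38.p6, plus strand, a match to an HNF motif in capitals, chr3:28699722-28699881, chr13:74147732-74147891, chr5:33122046-33122205 and chr4:119117844-119118003).
Slc2a2, +1.90 kb: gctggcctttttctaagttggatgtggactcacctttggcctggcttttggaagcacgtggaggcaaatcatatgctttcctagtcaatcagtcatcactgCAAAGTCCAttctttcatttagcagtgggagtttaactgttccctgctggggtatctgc
Slc9a3, +26.36 kb: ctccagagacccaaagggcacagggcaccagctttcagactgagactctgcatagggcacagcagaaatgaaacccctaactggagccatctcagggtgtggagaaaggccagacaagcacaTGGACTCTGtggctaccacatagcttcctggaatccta
Slc5a1, +17.91 kb: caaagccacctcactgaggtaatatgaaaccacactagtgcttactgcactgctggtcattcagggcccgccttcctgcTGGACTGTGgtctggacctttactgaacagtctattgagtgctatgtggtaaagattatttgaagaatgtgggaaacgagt
Slc2a1, +9.21 kb: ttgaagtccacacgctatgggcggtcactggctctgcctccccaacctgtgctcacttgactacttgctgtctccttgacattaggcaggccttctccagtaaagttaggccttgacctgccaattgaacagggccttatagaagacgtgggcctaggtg
Of these the Slc2a2 peak at 1.90 kb (chr3:28699467-28700137) was open in PT in 25.4% and 19.2% (P0), 18.7% (P21) and 9.60% and 27.1% (P56) and in PT2 in 16.9% and 15.2% (P0), 4.14% (P21) and 3.81% and 10.2% (P56), and the adult log2 ratio was 1.98 ± 0.19 (SE, edgeR adjusted p = 5.0e-09). HNF1 and HNF4 factors are known activators of proximal tubule genes, and 2 motifs were searched on both strands of the central 300 bases of each peak: GTTAATNATTAAC for HNF1, with up to 2 mismatches, and CAAAGTCCA for HNF4, with up to 1. A match is a description of letters. HNF4 letters were found in 16 of 111 peaks (14.4%) against 11.6% of all peaks, 3 of them exact, and HNF1 letters in 4 (3.60%) against 2.85%. Among the 37 peaks higher in adult PT, 7 (18.9%) held the HNF4 letters, against 19.5% of all peaks higher there, and 1 (2.70%) the HNF1 letters, against 8.48%. Among the 17 higher in adult PT2, 2 (11.8%) held the HNF4 letters, against 15.8%, and 0 the HNF1 letters, against 4.95%. In the RefSeq promoters, the HNF4 letters were found once in Slc34a1 and, exact, in 1 Pdzk1 promoter, against 8.47% of all promoters with a match. HNF1 letters, held by 1.36% of all promoters, were in none of the 10 promoters of the 8 matched genes.

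Likeness to other genes was described by Pearson's r of log2(CPM + 1) of the gene sums over the 65 sums of sample and main cluster, which share their 5 libraries and the depth of each cluster, leaving out genes that share a peak. The highest values were those of Slc2a2 with Slc3a1, a cystine carrier subunit (0.93), Lrp2, the endocytic receptor megalin (0.92), and Acox2 (0.92), and of Pdzk1 with Clrn3 (0.91), Slc2a2 (0.90) and Kcnj15 (0.90). Slc34a1 was most like Gm4952 (0.88), Prodh2 (0.85) and Slc13a3 (0.82), and Slc9a3 most like Gm9973 (0.85), Pdilt (0.85) and Gm26967 (0.84). For Slc5a2 these were Pfn3 (0.81), whose 1 peak is the one at the 3′ end of Slc34a1, Ndrg1 (0.77) and Eef1akmt3 (0.76), and for Slc5a1 Nipsnap1 (0.80), Aadat (0.79) and Flvcr2 (0.79). Slc34a3 was nearest to Repin1 (0.78), Dmtn (0.78) and Dlec1 (0.76). The widely open genes were most like others: Slc2a1 like Map3k1 (0.85), Slco4a1 (0.85) and Cntd1 (0.85), Slc20a1 like Ythdf2 (0.76), Gm5099 (0.73) and Gm29093 (0.73), and Slc20a2 like Nlrp6 (0.81), Gm43158 (0.81) and Cda (0.81).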

How the data were processed

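Single nuclei ATAC-seq of 5 mouse kidney samples (2 of P0, 1 of P21, 2 of P56) was analysed, with the adult group made of P21 and P56 as in the series' design text. Per the labels and methods, the authors aligned reads to mm10 with Cell Ranger ATAC 1.1.0, clustered nuclei on 5 kb bins with SnapATAC and Harmony, called peaks per cell type with MACS2 on pooled nuclei before merging the lists. The deposited matrix holds, per nucleus and peak, whether the peak was open, a binarized count of 0 or 1. The deposited cluster names were used, and sample names in the metadata were matched to the labels. Doublets were not searched for. Members and gene lists were chosen with earlier results of these data known.

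Open calls were summed per sample and cluster, and all peaks of the matrix were tested with edgeR 4.0.16 in R 4.3.3 (quasi-likelihood test, filterByExpr with a minimum count of 10 and total of 15, TMM, Benjamini-Hochberg adjusted p under 0.05). The study tested nuclei with Fisher's exact test. Here sums per sample were tested, since nuclei of the same sample were not taken as replicates. PT and PT2 of a sample come from the same kidneys, so the sample was a block there, and an interaction was tested over both stages. P-values measure the spread between samples, whose number limits the precision, and edgeR steadies that spread with the spread of all peaks. At P0, where PT and PT2 were compared in 2 samples with a block, they lean mostly on this shared spread. There edgeR called 7224 of 55315 peaks and DESeq2 192. A peak near 0 in 1 group enters a test through the counts of the other. Shares are percentages of nuclei with the peak open, their SD is over samples, and intervals cover counting error only. A limit for 0 open nuclei is 3 counts. To compare shares at equal depth, each nucleus was thinned to 1000 open peaks, leaving out 77 to 257 shallower nuclei per sample. Sums over gene windows were treated the same way. SE is the log2 fold change divided by the root of the F statistic.

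For each gene the start peak, its most open other peak, up to 8 called peaks per comparison with the lowest adjusted p, up to 4 list genes per comparison and direction, and up to 3 most alike genes were named, and further peaks in the text were picked after their values were seen. Alternatives were DESeq2 1.42.0, its size factors, no filter, thinning, equal numbers of nuclei, no block, 5 kb upstream windows and each sample left out. The procedure was tested on simulated data. Sequences are from RefSeq (GRCm38.p6), analysed with Python 3.11.15.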

Additional observations from a re-analysis of the deposited data

How the results depend on the processing

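Of 1891 values of single peaks and genes tested both in the main fit and under an alternative, 1625 kept their side of the threshold. A change of direction in a value called in neither fit was counted among these, and values with too few counts under an alternative were left out. Of the rest, 214 were no longer called, 49 were newly called and 3 reversed. All 3 were in the PT stage comparison after thinning to 1000 open peaks per nucleus: the Pdzk1 peaks at 0.86 kb (-0.22) and 7.42 kb (-0.51) and the Slc9a3 peak at 19.64 kb (-0.10). Where counts of calls moved by over 1.5 times, the cause was not tested, beyond the fewer open calls or samples that an alternative holds. For the peaks, the 35 calls of PT by stage became 22 with DESeq2, 5 after thinning and 15 to 40 with a sample left out, and the 4 of PT2 became 2 with DESeq2, 18 with no filter, 0 after thinning and 0 to 7 with a sample left out. The 17 of PT against PT2 at P0 became 2 with DESeq2, 0 after thinning and 6 with equal numbers of nuclei, and the 54 in the adult 28 after thinning, 32 with equal numbers and 46 to 53 with a sample left out. Calls over all tested peaks fell too, after thinning to 5201 of 42246 (PT by stage), 5 of 6018 (PT2 by stage), 3 of 7724 (P0) and 7881 of 31576 (adult). The interaction, with 0, gave 1 with no filter and 0 to 2 with a sample left out.

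For the gene sums, the 6 calls of PT by stage became 2 after thinning and 1 to 7 with a sample left out, and the 1 of PT2 became 2 with no filter, 0 after thinning, 2 with windows from 5 kb upstream and 0 to 2 with a sample left out. The 6 calls at P0 became 2 with DESeq2, 1 after thinning and 3 with equal numbers of nuclei, and the 7 in the adult stayed at 7 or 8 apart from 6 with no replicate block. Without the block, PT against PT2 gave 16 peaks at P0 and 46 in the adult, 5 gene sums at P0 and 0 peaks for the interaction. Leaving out a P0 sample in the comparison at P0 leaves no residual degrees of freedom and was not run. No paired analysis was possible because P0 and adult samples came from different mice, so the stage comparisons had no block. Size factors of DESeq2 moved the median of all features by under 0.1 on the log2 scale. No filter moved that of all peaks by 0.55 in PT2 by stage and 0.43 in PT against PT2 at P0, and thinning that of the interaction by -0.27. The share of higher calls in adult PT against PT2 rose from 68.5% to 78.9% with no filter, 75.0% with equal numbers of nuclei and 82.1% with thinning. The limits are 2 P0 samples, 195 PT2 nuclei at P0, and a deeper PT2 in each sample.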

Other observations

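The 2 deposited clusters outside the main 13 held 664 nuclei. The intervals here pool the nuclei of the samples and cover counting error only, and the shares of single samples ranged more widely. PT_out, with 446 nuclei, was open at the start peak of Slc34a1 in 22.4% (exact 95% interval of 18.6% to 26.6%, samples from 12.3% to 30.5%), of Slc34a3 in 20.9% (17.2% to 24.9%, samples from 6.60% to 28.2%) and of Slc5a2 in 7.62% (5.34% to 10.5%, samples from 3.85% to 11.5%). At Slc5a1 the share was 9.42% (samples from 3.77% to 16.0%) and at Pdzk1 13.7% (samples from 3.77% to 19.2%), and the widely open start of Slc2a1 reached 32.1% (samples from 19.8% to 46.6%). In NP_LOH, with 218 nuclei, the start peaks of Slc34a1, Slc34a3 and Pdzk1 were open in 0 of 218 nuclei, which allows a share of up to 1.38%, while those of Slc2a1 and Slc20a1 were open in 22.9% (samples from 0% to 36.2%) and 20.2% (samples from 0% to 33.3%).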
